A study of Mus musculus with 12 samples.

Results

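The circadian clock genes described here are 10 genes chosen by name, with earlier results of these data known. They are Per1, Per2, Per3, Cry1, Cry2, Arntl, Clock, Nr1d1, Nr1d2 and Dbp, and they are 10 of the 24421 genes with a value in each of 12 mouse libraries. All 10 were among the 13375 genes that passed a filter on low values, a mean of at least 0.5 FPKM (fragments scaled by transcript length and library total) over the libraries. In mammalian cells the proteins of Arntl (also called Bmal1) and Clock form a pair that binds E-box sequences and activates Per and Cry genes, and PER and CRY proteins then inhibit that pair, which gives a daily cycle of transcription. NR1D1 and NR1D2 (REV-ERB alpha and beta) form a second loop that represses Arntl, and DBP is an output factor that binds D-box sequences. In peripheral tissues of mice, Dbp and Nr1d1 transcripts peak by day and Arntl transcripts at the opposite part of the cycle, so a level of such a gene depends on the hour at which a tissue was taken.

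RNA sequencing had been done on prostate tissue of TRAMP mice, strain C57BL/6-Tg(TRAMP)8247Ng/J, and of wild type C57BL/6 mice, to study prevention of prostate cancer by phenethyl isothiocyanate (PEITC), a compound from cruciferous vegetables. TRAMP mice carry SV40 T antigens under the probasin promoter, which is active mainly in prostate epithelium. The groups were a tumor of a TRAMP mouse aged 24 weeks (1 library), TRAMP mice on PEITC diet at 24 weeks (2 libraries, replicates 0 and 1), TRAMP mice on control diet at 24 weeks (2, replicates 0 and 2), and wild type mice on control diet at 24 weeks (2, replicates 0 and 1). At 16 weeks there were TRAMP mice on PEITC diet (2, replicates 0 and 1), TRAMP mice on control diet (2, replicates 0 and 1) and wild type mice on control diet (1, replicate 0). The control diet was AIN93M and the PEITC diet was AIN93M with 0.05% PEITC by weight. The tumor library is listed with 0% PEITC in the diet. The 11 prostate libraries came from ventral and dorsolateral lobes, and the lobe of the tumor was unknown. The labels give neither the hour of collection nor the number of animals behind a library, so the part of collection time in any difference below was not tested, and p-values measure only the spread between these libraries, which may be technical. In bulk tissue, fewer cells of a type and less RNA per cell cannot be told apart.

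Libraries differed in ways that bear on several comparisons. Depth in reads is unknown, and relative depth was 0.854 to 1 in all TRAMP prostates but PEITC replicate 0 of 16 weeks (0.667), against 0.681 and 0.694 in wild type at 24 weeks and 0.635 in wild type at 16 weeks. The tumor library was at 0.698. The summed level of 6 proliferation markers was 171 to 215 FPKM in TRAMP prostates on control diet, against 16.1 to 36.0 FPKM in wild type prostates. The 8 luminal and secretory prostate markers, all above 0 in every group, summed to 4386 to 8058 FPKM in TRAMP prostates on control diet, against 23900 to 27530 FPKM in wild type prostates. Of these markers, 7 of 8 were called lower at 24 weeks and 4 of 8 at 16 weeks. The 6 smooth muscle markers summed to 280 to 338 FPKM in TRAMP prostates on control diet, against 722 to 859 FPKM in wild type prostates. The 4 basal markers summed to 26.6 to 34.1 FPKM in TRAMP prostates on control diet, against 104 to 134 FPKM in wild type prostates, and all 4 were called lower at both ages. The 6 macrophage markers summed to 94.8 to 314 FPKM, against 52.9 to 80.2 FPKM, with 5 of 6 called higher at 24 weeks and 0 at 16 weeks. The 4 T cell markers summed to 5.30 to 11.4 FPKM, against 1.99 to 4.14 FPKM, with 2 of 4 called higher at each age. The lone wild type library of 16 weeks stood apart. Its 6 seminal vesicle markers summed to 7813 FPKM, against 8.02 FPKM at most in any other library.

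In the GRCm38 genome (GENCODE M21 annotation), all 10 genes are protein coding. Per1 lies on chr11:69095217-69109960 (+), Per2 on chr1:91415982-91459324 (-), Per3 on chr4:151003652-151044665 (-), Cry1 on chr10:85131700-85185064 (-) and Cry2 on chr2:92403646-92434043 (-). Arntl lies on chr7:113207465-113314126 (+), Clock on chr5:76209868-76304792 (-), Nr1d1 on chr11:98767932-98775333 (-), Nr1d2 on chr14:18204054-18239127 (-) and Dbp on chr7:45705088-45710203 (+). Exons of 3 members overlap a gene on the opposite strand that also has values in the files. Nr1d1 shares 263 exonic bases with Thra, Dbp shares 539 with Sphk2 and Cry2 shares 295 with D930015M05Rik. Whether counting used strand is not given in the sources used here, so fragments from these shared bases could have been given to either gene.

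RefSeq promoter windows (build GRCm38.p6, 250 bases before to 50 bases after a start) were available for 9 members, in 13 windows; Per2 had none. Motifs were searched on both strands as exact letters. CACGTG stood for the E-box, CACGTT for the E-prime box, TTATGTAA or TTACGTAA for the D-box, TAGGTCA or TGGGTCA for the element bound by REV-ERB and ROR receptors and TGACGTCA for the cyclic AMP response element. No searched motif is part of another, and no matches in the members' windows overlapped. Of the 13 windows, 2 held the E-box, 3 the E-prime box, 1 the D-box, 1 the REV-ERB/ROR element and 0 the cyclic AMP response element. For each motif these windows belonged to different members. Of 32851 windows of the same length over all genes, 7.15% held the E-box, 4.68% the E-prime box, 1.06% the D-box, 6.45% the REV-ERB/ROR element and 1.79% the cyclic AMP response element. A match is a description of the letters and says nothing of binding in these tissues.

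The 4 windows below hold matches to searched motifs and belong to members whose values are set out in the comparisons. Sequences run 5′ to 3′ on the gene's strand and capitals mark the motif matches. For Per1 (first RefSeq start, chr11:69098699-69098998, + strand) the match is an E-box whose first base lies 166 bases before the start. For Per3 (chr4:151044616-151044915, - strand) the matches are a pair of D-boxes, 205 and 158 bases before it. For Cry1 (chr10:85185005-85185304, - strand) they are an E-prime box read on the other strand, 79 bases before the start, and an E-box, 60 bases before it. For Arntl (second start, chr7:113207261-113207560, + strand) it is a REV-ERB/ROR element 31 bases after the start.
Per1: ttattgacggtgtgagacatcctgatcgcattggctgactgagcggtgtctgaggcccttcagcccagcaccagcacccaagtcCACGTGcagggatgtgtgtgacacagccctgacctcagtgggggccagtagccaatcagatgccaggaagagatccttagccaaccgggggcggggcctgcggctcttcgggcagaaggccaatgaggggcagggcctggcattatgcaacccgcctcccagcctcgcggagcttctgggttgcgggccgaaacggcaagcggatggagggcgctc
Per3: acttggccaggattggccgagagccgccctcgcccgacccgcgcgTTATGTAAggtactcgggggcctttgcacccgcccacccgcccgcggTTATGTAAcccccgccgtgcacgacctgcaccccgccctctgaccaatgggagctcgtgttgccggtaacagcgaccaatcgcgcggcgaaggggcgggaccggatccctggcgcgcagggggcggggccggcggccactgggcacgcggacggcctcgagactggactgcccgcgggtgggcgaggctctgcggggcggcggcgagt
Cry1: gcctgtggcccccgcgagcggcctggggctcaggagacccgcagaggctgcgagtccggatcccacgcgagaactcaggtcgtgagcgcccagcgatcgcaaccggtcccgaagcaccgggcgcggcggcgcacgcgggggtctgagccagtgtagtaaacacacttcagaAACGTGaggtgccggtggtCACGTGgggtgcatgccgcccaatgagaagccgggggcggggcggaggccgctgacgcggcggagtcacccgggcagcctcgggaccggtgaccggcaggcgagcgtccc
Arntl: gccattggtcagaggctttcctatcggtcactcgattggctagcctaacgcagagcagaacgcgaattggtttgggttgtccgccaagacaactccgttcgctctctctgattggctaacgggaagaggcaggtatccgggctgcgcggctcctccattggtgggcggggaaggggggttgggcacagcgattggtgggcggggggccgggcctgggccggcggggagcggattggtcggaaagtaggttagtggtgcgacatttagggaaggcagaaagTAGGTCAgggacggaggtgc

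**Figure D1:**
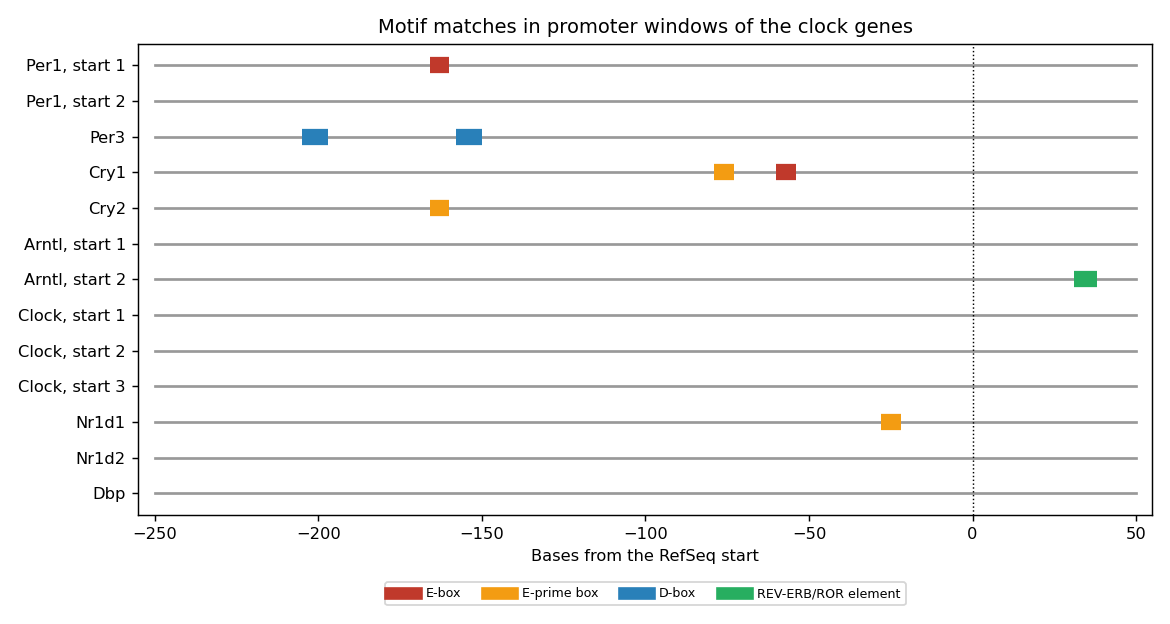
Motif matches in the 13 RefSeq promoter windows of 9 clock genes. The x axis is the distance in bases from the RefSeq start (dotted line), grey lines are the windows and coloured blocks are exact matches, with 2 D-box matches in the Per3 window and an E-box beside an E-prime box in the Cry1 window.

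The E-prime box was also found in the Cry2 window (166 bases before the start) and in the Nr1d1 window (28 bases before). The second Per1 window, the first Arntl window and the windows of Clock, Nr1d2 and Dbp held no match, which says only that these exact letters are not in those windows.

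Over the 12 libraries the members spanned a narrow range of levels. The median level was lowest for Arntl, the partner of Clock, at 3.20 FPKM, and highest for Nr1d2 at 28.4 FPKM. Between them came Per2 (6.76 FPKM), Clock (8.52 FPKM), Per3 (9.53 FPKM), Per1 (11.6 FPKM), Dbp (13.2 FPKM), Cry1 (15.6 FPKM), Nr1d1 (15.8 FPKM) and Cry2 (19.0 FPKM). The highest library exceeded the lowest by 2.63-fold for Per2, 2.28-fold for Dbp and 2.15-fold for Nr1d2, and by 1.34-fold for Per1. In the 11 prostate libraries without the tumor, the span of Per2 was 1.80-fold and that of Cry1 was 1.38-fold, while that of Dbp stayed at 2.28-fold. The tumor was thus the lowest library for Per2 and Cry1, and not for Dbp.

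**Figure D2:**
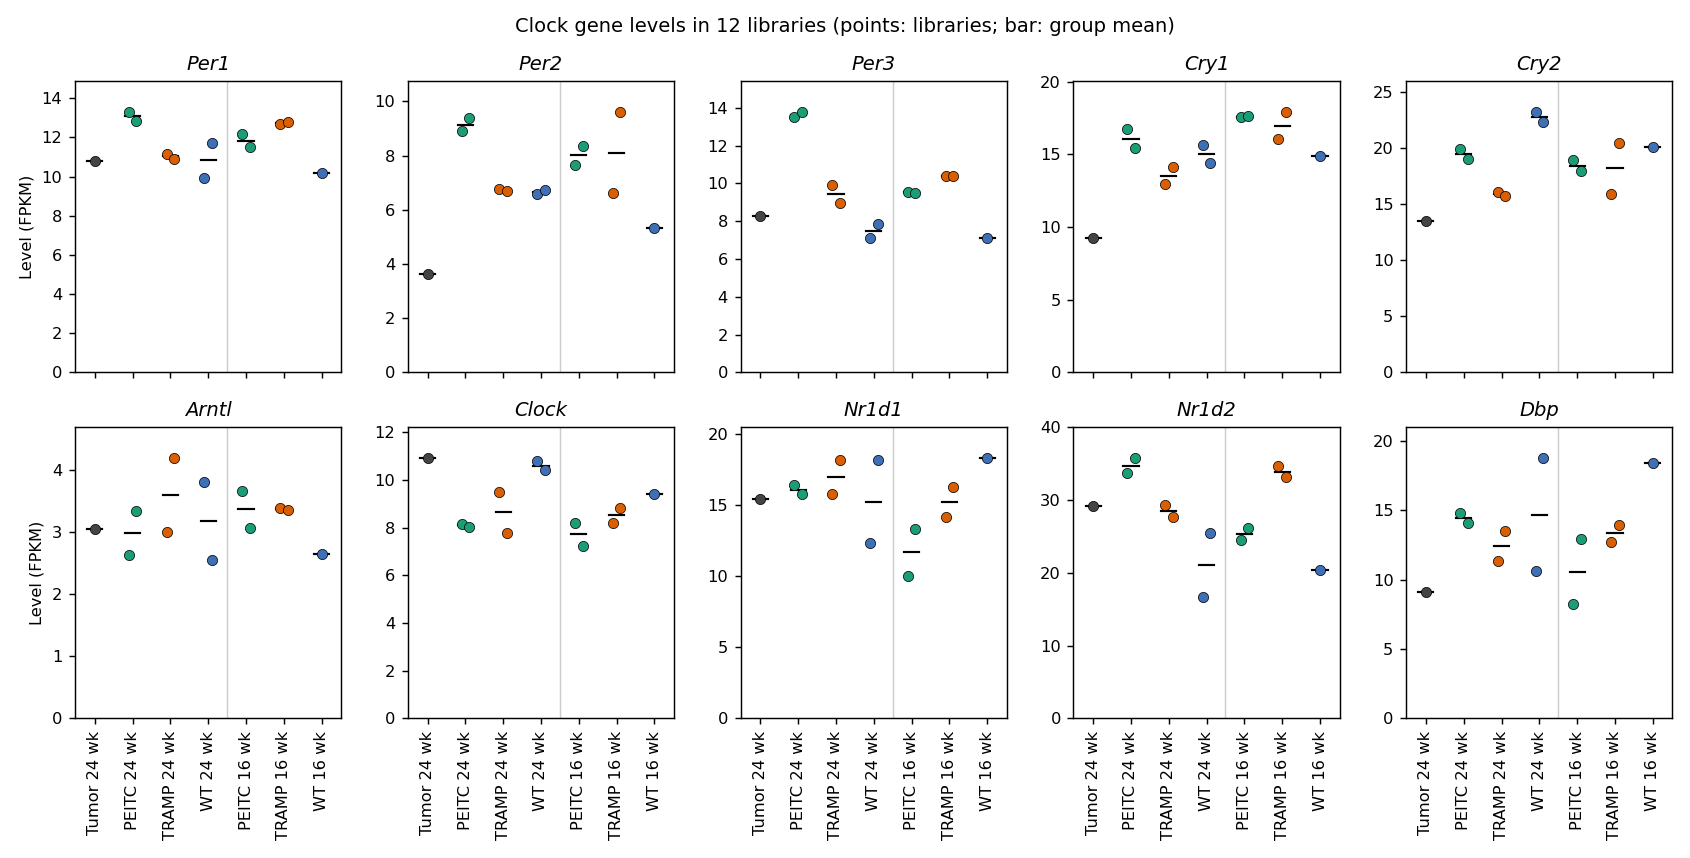
Levels of the 10 clock genes in FPKM (y axis, from 0) in 12 libraries. Points are libraries, bars are group means, and groups run from the tumor and PEITC, TRAMP and wild type (WT) groups at 24 weeks to the PEITC, TRAMP and WT groups at 16 weeks; Per3 stands above 13 FPKM in both PEITC libraries of 24 weeks, and Dbp is split between the 2 wild type libraries of 24 weeks.

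The first comparison set TRAMP prostates against wild type prostates, both on control diet. Per3, a Period gene whose loss alters rhythms least in mice, was higher in TRAMP at both ages, Cry2, a repressor of the Arntl and Clock pair, was lower at 24 weeks, and Nr1d2 was higher at 16 weeks. At 24 weeks limma (adjusted p under 0.05 over all 13375 genes) called 2 of 10 members, 1 higher and 1 lower, where it called 45.0% of all tested genes, 23.0% higher and 22.0% lower. At 16 weeks it called 2 of 10 members, both higher, where it called 33.6% of all tested genes, 18.1% higher. Counted in either direction, neither share of the members exceeded that over all genes. The 2 of 10 called higher at 16 weeks were close to the 18.1% over all genes. The libraries of the genotypes did not overlap for 5 of 10 members at 24 weeks and 9 of 10 at 16 weeks, as for 73.2% and 84.6% of all tested genes. The members' median absolute log2 fold change was 0.17 at 24 weeks and 0.28 at 16 weeks, against 0.27 and 0.28 over all tested genes.

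Per3 had 9.91 and 8.99 FPKM in TRAMP control diet at 24 weeks, against 7.10 and 7.86 FPKM in wild type at 24 weeks. It had 10.4 FPKM in both TRAMP control diet libraries of 16 weeks, against 7.11 FPKM in wild type. Every TRAMP prostate library of either age lay above every wild type library. The log2 fold change of log2(FPKM + 1) was 0.30 (SE 0.08, limma adjusted p = 0.0145) at 24 weeks and 0.49 (SE 0.09, limma adjusted p = 0.00584) at 16 weeks. The call at 24 weeks was lost without TRAMP replicate 0 (0.24, limma adjusted p = 0.08) or without wild type replicate 0 (0.24, limma adjusted p = 0.072), while the mean over both ages, 0.40 (SE 0.06, limma adjusted p = 0.00102), kept its call whichever library was left out.

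Cry2 had 16.1 and 15.8 FPKM in TRAMP control diet at 24 weeks, against 23.2 and 22.3 FPKM in wild type. It had 15.9 and 20.5 FPKM in TRAMP control diet at 16 weeks, against 20.1 FPKM in wild type. At 24 weeks the groups were apart, and at 16 weeks the wild type value lay between the TRAMP libraries. At 24 weeks Cry2 fell by 0.49 on the log2 scale (SE 0.10, limma adjusted p = 0.00653), a call that held with each library left out. D930015M05Rik, which shares exonic bases with Cry2, ranged from 0.37 to 0.81 FPKM over all libraries.

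Nr1d2, a repressor of Arntl, had 34.7 and 33.1 FPKM in TRAMP control diet at 16 weeks, against 20.3 FPKM in wild type. At 24 weeks it had 29.3 and 27.7 FPKM in TRAMP control diet, against 16.6 and 25.5 FPKM in wild type. The TRAMP libraries lay above the wild type libraries at both ages. The log2 fold change was 0.71 at 16 weeks (SE 0.20, limma adjusted p = 0.0264) and 0.45 at 24 weeks (SE 0.16, limma adjusted p = 0.052), and the value at 24 weeks did not pass. At 16 weeks the call was lost without TRAMP replicate 0 (0.68, limma adjusted p = 0.0785) or without replicate 1 (0.74, limma adjusted p = 0.0625). At 24 weeks leaving out wild type replicate 1, the higher of that pair, gave 0.74 (limma adjusted p = 0.00104), and leaving out wild type replicate 0 gave 0.15 (limma adjusted p = 0.159).

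Clock, the partner of Arntl, had 9.52 and 7.80 FPKM in TRAMP control diet at 24 weeks, against 10.8 and 10.4 FPKM in wild type. Both TRAMP libraries lay below both wild type libraries, with a log2 fold change of -0.27 (SE 0.10, limma adjusted p = 0.0624) that did not pass. Without TRAMP replicate 0 it was -0.40 (limma adjusted p = 0.0226). At 16 weeks Per1 had 12.7 and 12.8 FPKM in TRAMP control diet, against 10.2 FPKM in wild type, and its log2 fold change of 0.29 did not pass (limma adjusted p = 0.0571). Per2 had 6.62 and 9.60 FPKM in TRAMP control diet at 16 weeks, against 5.32 FPKM in wild type. Its log2 fold change of 0.51 did not pass (limma adjusted p = 0.055), and it was 0.75 (limma adjusted p = 0.00464) without TRAMP replicate 0, the lower library.

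Because the 16-week wild type library stood apart in seminal vesicle transcripts, the contrast was repeated without it, a setting chosen after its values were seen. TRAMP prostates of both ages against wild type at 24 weeks gave log2 fold changes of 0.37 for Per3 (limma adjusted p = 0.00272), 0.57 for Nr1d2 (limma adjusted p = 0.0105), -0.40 for Cry2 (limma adjusted p = 0.00699) and -0.28 for Clock (limma adjusted p = 0.0317). With that library kept, the mean over the ages was 0.58 for Nr1d2 (limma adjusted p = 0.0059), -0.32 for Cry2 (limma adjusted p = 0.0124) and -0.20 for Clock (limma adjusted p = 0.0686), and 3 of 10 members were called, 2 higher and 1 lower, against 52.7% of all tested genes, 26.8% higher and 25.9% lower. Thus Per3, Nr1d2 and Cry2 were called with and without it. Leaving the 50 most abundant genes out of the scaling raised all tested genes by a median of 0.10 at 24 weeks and 0.11 at 16 weeks and for the mean (log2), and called genes were then higher in 66.6%, 70.3% and 67.3% of cases, against 51.1%, 54.1% and 50.9% as deposited. Under that scaling Per3 stayed called higher in all these contrasts and Cry2 stayed called lower at 24 weeks, while Cry2 in the mean was at -0.21 (limma adjusted p = 0.067). Further members passed under that scaling, all higher. They were Nr1d2 at 24 weeks (0.55, limma adjusted p = 0.0235), Per1 at 16 weeks (0.40, limma adjusted p = 0.0181) and in the mean (0.27, limma adjusted p = 0.0106), and Per2 at 16 weeks (0.61, limma adjusted p = 0.0285) and in the mean (0.36, limma adjusted p = 0.0277). The part of the shifts in proliferation, secretory, basal, smooth muscle, macrophage and T cell markers in these values was not tested.

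Dbp, Nr1d1 and Arntl, transcripts that swing widely over the day in other mouse tissues, passed the test at neither age. At 24 weeks the libraries of the genotypes overlapped for all 3 genes, and at 16 weeks the lone wild type library lay outside the TRAMP pair for each. Dbp had 11.4 and 13.5 FPKM in TRAMP control diet at 24 weeks, against 10.6 and 18.8 FPKM in wild type, and 12.7 and 14.0 FPKM in TRAMP control diet at 16 weeks, against 18.4 FPKM in wild type. Its log2 fold change was -0.18 at 24 weeks (95% interval -0.78 to 0.42, limma adjusted p = 0.604) and -0.44 at 16 weeks (-1.17 to 0.29, limma adjusted p = 0.316). Nr1d1 had 15.8 and 18.2 FPKM in TRAMP control diet at 24 weeks, against 12.3 and 18.2 FPKM in wild type, with a log2 fold change of 0.17 (-0.26 to 0.60, limma adjusted p = 0.491). At 16 weeks it had 14.1 and 16.3 FPKM in TRAMP control diet, against 18.3 FPKM in wild type, with a log2 fold change of -0.26 (-0.78 to 0.27, limma adjusted p = 0.413). Arntl had 3.0 and 4.19 FPKM in TRAMP control diet at 24 weeks, against 3.80 and 2.56 FPKM in wild type, with a log2 fold change of 0.14 (-0.29 to 0.57, limma adjusted p = 0.562). At 16 weeks it had 3.39 and 3.35 FPKM in TRAMP control diet, against 2.64 FPKM in wild type, with a log2 fold change of 0.26 (-0.26 to 0.79, limma adjusted p = 0.399). These intervals are wide enough to hold changes in either direction. The mean over the ages was -0.31 for Dbp (limma adjusted p = 0.239), and without wild type replicate 0 of 24 weeks, the lower library of that pair, it was -0.50 (limma adjusted p = 0.0395), which passed. The direction at 24 weeks turned for Dbp without wild type replicate 1 (0.21) and for Nr1d1 without wild type replicate 0 (-0.096). For Arntl it turned without TRAMP replicate 2 (-0.048), without wild type replicate 1 (-0.076) and with quantile normalization (-0.093). Thra, which overlaps Nr1d1, averaged 13.2 FPKM in TRAMP control diet at 24 weeks and 20.6 FPKM in wild type, and Sphk2, which overlaps Dbp, ranged from 17.5 to 26.0 FPKM over all libraries.

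**Figure D3:**
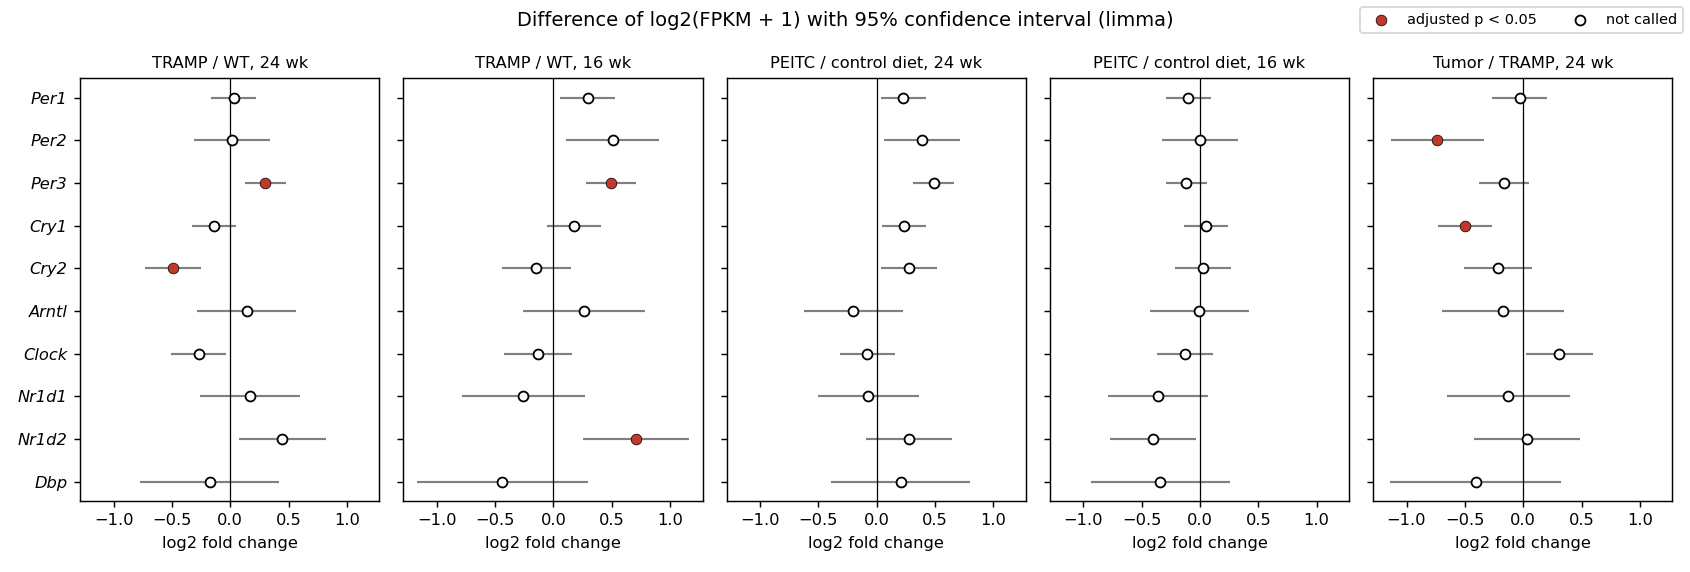
Log2 fold changes of the 10 clock genes (x axis, difference of log2(FPKM + 1)) with 95% confidence intervals from limma, for TRAMP over wild type and PEITC over control diet at each age and for tumor over TRAMP prostate. Filled points passed an adjusted p of 0.05; in the PEITC panel for 24 weeks the Per and Cry genes lie right of 0 and no point is filled.

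The wide intervals came from libraries of the same group that were apart. In wild type at 24 weeks, replicate 0 minus replicate 1 on the log2(FPKM + 1) scale was -0.77 for Dbp, -0.59 for Nr1d2, -0.53 for Nr1d1 and 0.43 for Arntl. Among all tested genes 1.69%, 3.02%, 3.79% and 5.61% had a larger gap in that pair than Dbp, Nr1d2, Nr1d1 and Arntl. So the library low in the REV-ERB genes and Dbp was the one high in Arntl. In TRAMP on PEITC diet at 16 weeks, replicate 0 minus replicate 1 was -0.59 for Dbp (3.66% of tested genes had a larger gap), -0.38 for Nr1d1 (7.58%) and 0.20 for Arntl (21.3%), the same order of signs as in the wild type pair. In TRAMP control diet at 24 weeks, replicate 0 minus replicate 2 was -0.23 for Dbp and -0.38 for Arntl, so there both were lower in 1 library. The largest gap in TRAMP control diet at 16 weeks was that of Per2, at -0.48 (6.93%).

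The ratio of Dbp to Arntl was more spread in wild type than in TRAMP prostates on control diet. In the tumor it was 2.98. On PEITC diet it was 5.62 and 4.23 at 24 weeks and 2.25 and 4.20 at 16 weeks. In TRAMP control diet it was 3.79 and 3.22 at 24 weeks and 3.76 and 4.17 at 16 weeks, against 2.79 and 7.34 in wild type at 24 weeks and 6.98 in wild type at 16 weeks. The TRAMP control diet libraries fell within the range of the wild type libraries.

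The median gap of the members in a pair of libraries was 0.06 in PEITC and 0.12 in control diet TRAMP at 24 weeks, 0.10 in PEITC and 0.11 in control diet TRAMP at 16 weeks, and 0.17 in wild type at 24 weeks. Over all tested genes it was 0.08, 0.12, 0.09, 0.12 and 0.11 in the same groups. The residual SD over all groups was largest for Dbp (0.32, exceeded by 7.5% of tested genes), then Nr1d1 (0.22), Arntl (0.21) and Nr1d2 (0.19), and smallest for Per3 (0.06). The median over the members was 0.135, against 0.10 over all tested genes.

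**Figure D4:**
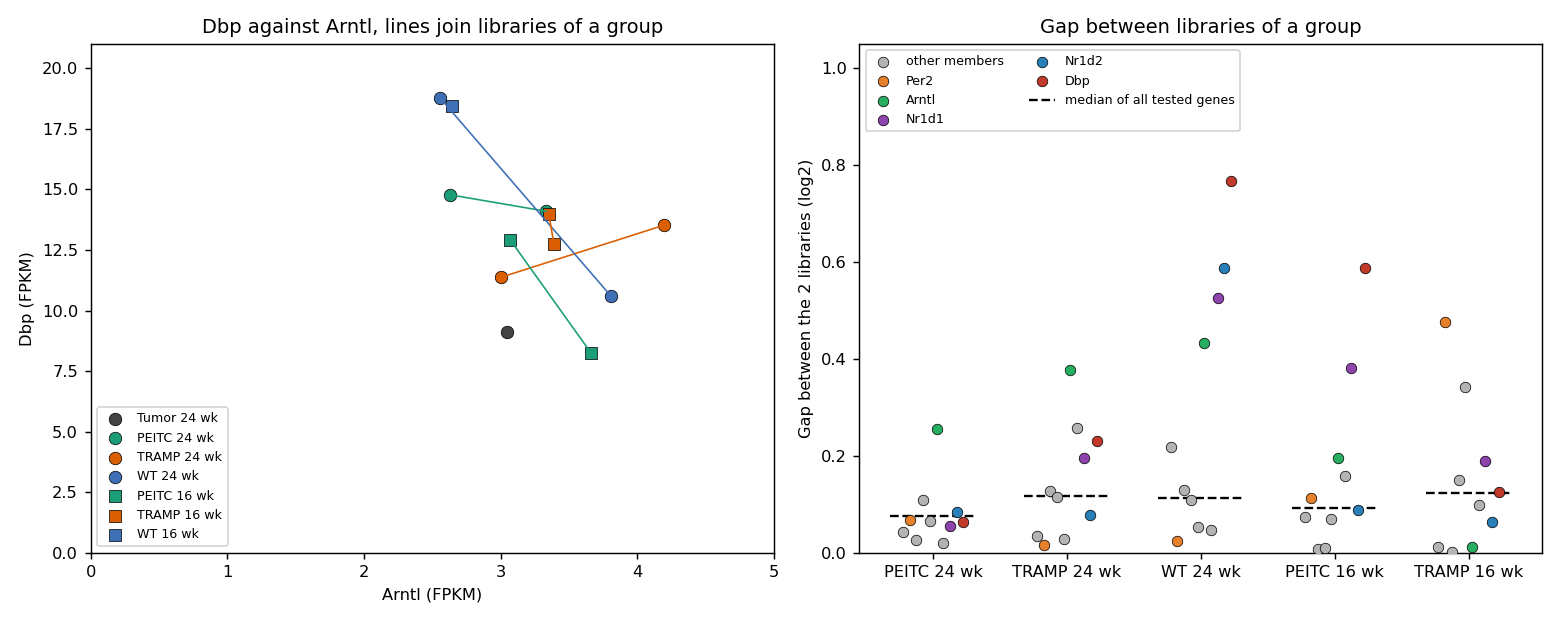
Left, Dbp (y axis, FPKM) against Arntl (x axis, FPKM) in each library, with lines joining libraries of a group. Right, absolute gap between the 2 libraries of a group on the log2(FPKM + 1) scale for each clock gene, with dashed lines at the median of all tested genes; the Dbp gap of 0.77 in wild type at 24 weeks is the largest point.

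The second comparison asked what the PEITC diet did in TRAMP mice, relative to control diet. At 24 weeks the Per and Cry genes, the repressor limb of the clock, all had higher levels on PEITC diet, but no gene in the whole table passed the adjusted threshold. Limma called 0 of 10 members and 0% of all tested genes at 24 weeks; at an unadjusted p under 0.05 it counted 5 of 10 members, all higher, where it counted 9.47% of all tested genes and 4.08% in that direction. In 7 of 10 members (Per1, Per2, Per3, Cry1, Cry2, Nr1d2 and Dbp) both PEITC libraries lay above both control diet libraries. Over all tested genes this held for 23.7%. Some members vary together over the 12 libraries (Pearson r = 0.868 for Per1 and Per3, 0.839 for Per2 and Cry1) and others do not (-0.125 for Per3 and Cry2). The members counted are thus not separate observations. The members' median log2 fold change was 0.23, against 0.01 over all tested genes, and the median absolute values were 0.23 and 0.10. A median absolute value above 0.10 was not particular to the members. It was 0.23 for macrophage markers, 0.20 for proliferation markers and 0.35 for immediate early genes. Each other gene list counted also lay above 0.10, except T cell markers (0.03).

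Per3 had 13.5 and 13.8 FPKM on PEITC diet at 24 weeks, against 9.91 and 8.99 FPKM on control diet. The PEITC libraries were the highest of all 12. Its log2 fold change was 0.49 (SE 0.08, limma adjusted p = 0.415), with the rank of 5 by p among the 13375 genes. Over the left-out libraries it ran from 0.42 to 0.55, with limma adjusted p from 0.094 to 0.962.

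Per2 had 8.91 and 9.38 FPKM on PEITC diet at 24 weeks, against 6.78 and 6.70 FPKM on control diet. Per1 had 13.3 and 12.9 FPKM on PEITC diet, against 11.2 and 10.9 FPKM on control diet. These groups did not overlap, and the log2 fold changes were 0.39 for Per2 (limma adjusted p = 0.5) and 0.23 for Per1 (limma adjusted p = 0.504). Cry1 had 16.7 and 15.4 FPKM on PEITC diet, against 12.9 and 14.1 FPKM on control diet, a log2 fold change of 0.23 (limma adjusted p = 0.491). Cry2 had 20.0 and 19.0 FPKM on PEITC diet, against 16.1 and 15.8 FPKM on control diet, a log2 fold change of 0.28 (limma adjusted p = 0.508). None of these passed, and the 95% intervals ran from 0.06 to 0.72 for Per2 and from 0.04 to 0.52 for Cry2.

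Arntl, Clock and Nr1d1 overlapped between the diets at 24 weeks. Arntl had 2.63 and 3.33 FPKM on PEITC diet, against 3.0 and 4.19 FPKM on control diet. Clock had 8.17 and 8.04 FPKM on PEITC diet, against 9.52 and 7.80 FPKM on control diet, and Nr1d1 had 16.4 and 15.8 FPKM on PEITC diet, against 15.8 and 18.2 FPKM on control diet. Nr1d2 had 33.7 and 35.8 FPKM on PEITC diet, against 29.3 and 27.7 FPKM on control diet, and Dbp had 14.8 and 14.1 FPKM on PEITC diet, against 11.4 and 13.5 FPKM on control diet. Both lay apart between the diets without passing an unadjusted p of 0.05. The Dbp interval was -0.39 to 0.80. The 6 proliferation markers summed to 186 to 213 FPKM on PEITC diet at 24 weeks, against 171 to 174 FPKM on control diet, with 0 of 6 called, and their part in the clock values was not tested.

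At 16 weeks the values did not follow those of 24 weeks. Limma called 0 of 10 members and 0.00748% of all tested genes, and counted 1 of 10 members at an unadjusted p under 0.05, where it counted 10.1% of all tested genes. That member was Nr1d2, with 24.5 and 26.2 FPKM on PEITC diet, against 34.7 and 33.1 FPKM on control diet. Its log2 fold change was -0.41 (SE 0.16, limma adjusted p = 0.459). Both PEITC libraries lay below both control diet libraries for 4 of 10 members, where this held for 21.2% of all tested genes. They were Nr1d2, Per1 (12.2 and 11.5 FPKM on PEITC diet, against 12.7 and 12.8 FPKM on control diet), Per3 (9.56 and 9.49 FPKM, against 10.4 FPKM in both control diet libraries) and Nr1d1 (10.01 and 13.3 FPKM, against 14.1 and 16.3 FPKM). The remaining 6 overlapped between the diets, among them Per2 (7.65 and 8.36 FPKM on PEITC diet, against 6.62 and 9.60 FPKM on control diet), Cry1 (17.5 and 17.7 FPKM, against 16.0 and 17.9 FPKM) and Cry2 (18.9 and 18.0 FPKM, against 15.9 and 20.5 FPKM). The 6 smooth muscle markers summed to 325 to 631 FPKM on PEITC diet at 16 weeks, against 285 to 338 FPKM on control diet, so the ranges overlapped. The 6 proliferation markers summed to 237 to 241 FPKM, against 177 to 215 FPKM, and the 4 basal markers to 45.3 to 48.9 FPKM, against 26.6 to 31.5 FPKM. In each of these lists 0 markers were called, and the part of the markers in the clock values was not tested.

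The difference of the PEITC effect between the ages, 24 minus 16 weeks, was tested in the same fit. It called 0 of 10 members and 0.00748% of all tested genes, and counted 3 of 10 members at an unadjusted p under 0.05, where it counted 12.9% of all tested genes. The difference was 0.60 for Per3 (SE 0.11, limma adjusted p = 0.305), 0.68 for Nr1d2 (SE 0.23, limma adjusted p = 0.32) and 0.32 for Per1 (SE 0.12, limma adjusted p = 0.333). The mean of the PEITC effect over the ages called 0 of 10 members and 0% of all tested genes, with 6.65% of tested genes at an unadjusted p under 0.05. It was 0.19 for Per3 (limma adjusted p = 0.735) and 0.14 for Cry1 (limma adjusted p = 0.735), the 2 members at an unadjusted p under 0.05.

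Ages were also compared within each diet of TRAMP mice, 24 over 16 weeks; these comparisons share libraries with those between the diets. On control diet limma called 0 of 10 members and 0.00748% of all tested genes, and Cry1 alone of the members had an unadjusted p under 0.05, as did 16.9% of all tested genes. Cry1 had 12.9 and 14.1 FPKM at 24 weeks, against 16.0 and 17.9 FPKM at 16 weeks, a log2 fold change of -0.31 (SE 0.08, limma adjusted p = 0.181). On PEITC diet limma called 0 of 10 members and 0% of all tested genes, and counted 3 of 10 members at an unadjusted p under 0.05, as it did 8.04% of all tested genes. Per3 had 13.5 and 13.8 FPKM at 24 weeks, against 9.56 and 9.49 FPKM at 16 weeks, a log2 fold change of 0.48 (SE 0.08, limma adjusted p = 0.26), with the rank of 14 by p. Nr1d2 was at 0.44 (limma adjusted p = 0.575) and so was Nr1d1 (limma adjusted p = 0.613). Without PEITC replicates of 16 or 24 weeks in turn, the Nr1d1 value ran from 0.25 to 0.63. The difference of the TRAMP effect between the ages called 0 of 10 members and 0.366% of all tested genes. It had 1 member, Cry1, at an unadjusted p under 0.05, as had 15.8% of all tested genes. That difference was -0.32 (SE 0.13, limma adjusted p = 0.295). No alternative setting run called a clock gene in any PEITC or age comparison.

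The third comparison set the tumor of 24 weeks against TRAMP prostate on control diet at that age; the spread of the other groups stood in for that of the lone tumor library. Per2 and Cry1, both repressors of the Arntl and Clock pair, were lower in the tumor. Limma called 2 of 10 members, both lower, and 11.8% of all tested genes, 6.17% lower. Per2 had 3.65 FPKM in the tumor, against 6.78 and 6.70 FPKM in TRAMP prostate, and fell by 0.74 on the log2 scale (SE 0.17, limma adjusted p = 0.0335). Cry1 had 9.28 FPKM in the tumor, against 12.9 and 14.1 FPKM in TRAMP prostate, and fell by 0.50 (SE 0.10, limma adjusted p = 0.0199). For both genes the tumor was the lowest of the 12 libraries. The Per2 call was lost without TRAMP replicate 0 (-0.73, limma adjusted p = 0.0873) or replicate 2 (-0.74, limma adjusted p = 0.0762), and the Cry1 call without replicate 2 (-0.44, limma adjusted p = 0.0592).

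Clock had 10.9 FPKM in the tumor, against 9.52 and 7.80 FPKM in TRAMP prostate, a log2 fold change of 0.31 that did not pass (limma adjusted p = 0.152). Dbp had 9.10 FPKM in the tumor, against 11.4 and 13.5 FPKM in TRAMP prostate. Cry2 had 13.5 FPKM in the tumor, against 16.1 and 15.8 FPKM in TRAMP prostate, and Per3 had 8.30 FPKM, against 9.91 and 8.99 FPKM. For 8 of 10 members the tumor lay outside the TRAMP pair, as for 79.5% of all tested genes. The 2 that did not were Arntl (3.05 FPKM in the tumor, against 3.0 and 4.19 FPKM) and Nr1d2 (29.1 FPKM, against 29.3 and 27.7 FPKM). The tumor's 8 luminal and secretory markers summed to 3679 FPKM, against 4386 to 5738 FPKM in TRAMP prostate. This sum hides a split, as 3 of the 8 were called lower and 1 higher. The tumor's 4 endothelial markers summed to 14.8 FPKM, against 5.49 to 7.69 FPKM, with 1 of 4 called higher. The part of these markers in the tumor values was not tested.

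A further list of 20 genes held other parts of the clock, of which 19 passed the filter and Arntl2 did not. In TRAMP against wild type limma called 3 higher and 4 lower of the 19 at 24 weeks, where it called 45.0% of all tested genes, and 4 higher and 0 lower at 16 weeks, where it called 33.6%. Counted in either direction, neither exceeded the share over all genes. Ccrn4l (nocturnin, a gene with rhythmic expression in mouse tissues, also named Noct) had 6.24 and 8.10 FPKM in TRAMP control diet at 24 weeks, against 4.46 and 3.99 FPKM in wild type, and rose by 0.64 (SE 0.12, limma adjusted p = 0.00445). Btrc, which encodes an F-box protein of the ubiquitin ligase that targets PER proteins, had 8.20 and 9.37 FPKM in TRAMP, against 13.7 and 13.1 FPKM in wild type, and fell by 0.56 (SE 0.09, limma adjusted p = 0.00182). Bhlhe40, a repressor of the Arntl and Clock pair, was at 0.89 (SE 0.29, limma adjusted p = 0.0355), a call lost with each library left out in turn (0.78 to 0.997, limma adjusted p from 0.0729 to 0.135).

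At 16 weeks Wee1, a cell cycle kinase gene under clock control in mouse liver, rose by 0.56 (SE 0.10, limma adjusted p = 0.00526), and Csnk1d, a kinase of PER proteins, by 0.41 (SE 0.09, limma adjusted p = 0.00868). Ccrn4l rose by 0.53 (SE 0.15, limma adjusted p = 0.0303); without TRAMP replicate 0 it was at 0.45 (limma adjusted p = 0.0989). Wild type of 24 weeks as the control gave calls in the same direction for these 3 genes, from 0.28 for Csnk1d to 0.72 for Ccrn4l. Over both ages 4 genes of the list were called higher and 4 lower, where 52.7% of all tested genes were called. They included Ccrn4l (0.58, limma adjusted p = 0.00165) and Rorb (-0.48, limma adjusted p = 0.0155).

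In PEITC against control diet limma called 0 of the 19 at either age, with 4 at an unadjusted p under 0.05 at 24 weeks and 0 at 16 weeks. The same threshold was passed by 9.47% and 10.1% of all tested genes. The 4 list genes at 24 weeks were Npas2, Hlf, Bhlhe40 and Wee1. Hlf, a relative of Dbp, had 2.48 and 2.90 FPKM on PEITC diet at 24 weeks, against 1.01 and 1.57 FPKM on control diet. Bhlhe40 had 3.72 and 3.94 FPKM on PEITC diet, against 8.58 and 7.25 FPKM on control diet. Npas2, a relative of Clock, had 1.93 and 1.67 FPKM on PEITC diet, against 2.90 and 2.49 FPKM on control diet. In each of these the diets did not overlap, and none passed the adjusted threshold. Their choice by p in the same comparison makes such a separation likely, so it adds no separate evidence. Of all tested genes 23.7% lay apart with PEITC higher, and the share apart with PEITC lower is not given here.

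In the tumor 3 of the 19 were called higher and 0 lower, where 11.8% of all tested genes were called. Bhlhe40 had 27.03 FPKM in the tumor, against 8.58 and 7.25 FPKM in TRAMP prostate, and was at 1.66 (SE 0.35, limma adjusted p = 0.0234). Bhlhe41, its close relative, had 14.9 FPKM in the tumor, against 4.99 and 6.29 FPKM, and was at 1.27 (SE 0.30, limma adjusted p = 0.033). Csnk1e, a kinase of PER proteins, had 13.7 FPKM in the tumor, against 9.40 and 8.18 FPKM, and was at 0.59 (SE 0.15, limma adjusted p = 0.0394). Each of the 3 calls was lost when either TRAMP library was left out, with limma adjusted p from 0.0516 to 0.11.

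Because glucocorticoids, temperature and handling also act on Per genes, lists of their responsive genes were counted beside the clock. Of 12 glucocorticoid responsive genes, limma called 2 higher and 3 lower in TRAMP against wild type at 24 weeks, 0 higher and 2 lower at 16 weeks, and 4 higher and 1 lower in the tumor against TRAMP prostate. Of 10 temperature responsive genes, it called 2 higher and 3 lower at 24 weeks, 3 higher and 2 lower at 16 weeks, and 1 higher in the tumor. Of 11 immediate early genes tested, it called 4 higher and 1 lower at 24 weeks, 0 higher and 3 lower at 16 weeks, and 1 higher in the tumor. Among all tested genes it called 45.0% at 24 weeks, 33.6% at 16 weeks and 11.8% in the tumor, in either direction. In PEITC against control diet 0 genes of these lists were called at either age. At an unadjusted p under 0.05 the glucocorticoid list had 3 at 24 weeks and 1 at 16 weeks, the temperature list 1 and 3, and the immediate early list 2 and 2. That threshold was passed by 9.47% of all tested genes at 24 weeks and 10.1% at 16 weeks. The part of these lists in the clock values was not tested.

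Across the 12 libraries, which share groups and so are not independent, the members most alike on the log2 scale were Per1 and Per3 (Pearson r = 0.868), Per2 and Cry1 (0.839), Per3 and Nr1d2 (0.833), and Per1 and Nr1d2 (0.826). Nr1d1 and Dbp had r = 0.775. Among all tested genes the 5 most like Dbp were Ciart (0.901), Yrdc (0.894), Bet1 (0.865), Tmem165 (0.83) and Sec24d (0.825), and Ciart, a repressor of the Arntl and Clock pair, is the only 1 of them on the clock lists. The 5 most opposite to Dbp were Hnrnpm (-0.892), Sun2 (-0.877), Pop7 (-0.858), Gtpbp3 (-0.85) and Dusp16 (-0.848). For Arntl the 5 most alike were Lmo4 (0.844), Tada3 (0.832), Apip (0.806), Doc2a (0.798) and Snord42a (0.776), and the most opposite included Vps37a (-0.795), Zfp935 (-0.771), Stx12 (-0.726) and Tff3 (-0.719). These values describe 12 libraries and carry no test.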

How the data were processed

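Prostate RNA of mice was sequenced in 12 libraries of 7 groups. The authors deposited FPKM values per gene, and the submitters' processing notes name HISAT2, Picard, featureCounts, DESeq2 and the mm10 build, with no versions or roles. Which annotation and library total the authors used is not given in the sources used here. Values of a library sum to between 395678 and 467650. FPKM are not counts, so depth in reads is unknown, no interval or floor from counts is given, and only the smallest steps between values gave a relative depth.

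Values were converted to log2(FPKM + 1), which understates changes of low genes. Limma 3.58.1 (R 4.3.3) was fitted to the 13375 genes that averaged 0.5 FPKM or more, using 1 coefficient per group over all 12 libraries, which leaves 5 residual degrees of freedom. Variances were moderated along an intensity trend. Tests were two-sided, Benjamini-Hochberg adjustment ran over all tested genes, and an adjusted p under 0.05 was called. There were 11 comparisons. The fit was tested on simulated data. Motifs and figures were made with Python 3.11.15 and matplotlib 3.10.9.

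Named genes are the 10 members, the 4 largest called changes per comparison in the list of other clock genes, and the 5 genes most and least like Dbp and Arntl. The other clock genes at an unadjusted p under 0.05 on PEITC diet, and Thra and D930015M05Rik, were named after their values were seen. A few genes that this rule names are not reported here. Markers were counted by list. The members and lists were chosen with earlier results of these data known. Settings varied 1 at a time were the pseudocount (0.1 or 5), the filter (none, or an average of 2 FPKM), quantile normalization, scaling without the 50 most abundant genes, no intensity trend, only the groups compared, a replicate block, wild type of 24 weeks as control at 16 weeks, and each library left out in turn.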

Additional observations from a re-analysis of the deposited data

Results flagged for a closer look

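For 3 clock genes, all PEITC libraries lay above all control diet libraries at 24 weeks and below them at 16 weeks. Of all tested genes, 23.7% lay apart and higher at 24 weeks and 21.2% apart and lower at 16 weeks. The share of genes with both was not counted. The difference of the effects, 24 minus 16 weeks, on the log2(FPKM + 1) scale was 0.60 for Per3, 0.68 for Nr1d2 and 0.32 for Per1. The limma test of this difference gave adjusted p-values of 0.305, 0.32 and 0.333, so none of the 3 passed the threshold. The TRAMP effect on Cry1 was flagged for the same reason. Both TRAMP libraries lay below both wild type libraries at 24 weeks and above the lone wild type library at 16 weeks, with a difference of effects of -0.32 (limma adjusted p = 0.295), which did not pass. Libraries of the genotypes lay apart in either direction for 73.2% and 84.6% of all tested genes at these ages.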

How the results depend on the processing

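The Cry2 call in TRAMP against wild type at 24 weeks and the Per3 and Nr1d2 calls in the mean over ages held under all settings run. The Per3 call at 24 weeks was lost with quantile normalization (0.19, limma adjusted p = 0.0731) and with only the groups compared (limma adjusted p = 0.0871), and that at 16 weeks with only the groups compared (limma adjusted p = 0.0844). The Nr1d2 call at 16 weeks was lost with no filter (limma adjusted p = 0.0539). The tumor calls were lost with only the groups compared (Per2, limma adjusted p = 0.153; Cry1, limma adjusted p = 0.187), and that of Per2 with no filter (limma adjusted p = 0.0633). Directions turned in TRAMP against wild type at 24 weeks for Arntl with quantile normalization (-0.093) and with libraries left out (-0.076 to 0.36), for Nr1d1 (-0.096 to 0.43) and Dbp (-0.56 to 0.21) with libraries left out, and for Nr1d1 at 16 weeks with wild type of 24 weeks as control (0.017). In the mean over ages Nr1d1 turned with scaling without the 50 most abundant genes (0.064) and with libraries left out (-0.18 to 0.092). Over the 10 members and 11 comparisons, directions turned in 38 of 530 values with a library left out, 5 of 110 with quantile normalization, 2 of 110 with that scaling, 1 of 110 with a pseudocount of 5 and 1 of 10 with wild type of 24 weeks as control; 0 of these values were called as reported. Values that had not passed did so in 9, 5, 2, 1 and 1 cases with a library left out, that scaling, quantile normalization, a mean of at least 2 FPKM and wild type of 24 weeks as control. The cause was not tested.

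Counts of called genes moved as follows. Without a filter they were 9 for PEITC at 24 weeks, 6 at 16 weeks, 9 in the mean, 4 and 13 for age on control and PEITC diet, and 12 and 297 for the differences of the PEITC and TRAMP effects. With only the groups compared they were 2198 for TRAMP against wild type at 16 weeks, 1 and 0 for PEITC at 24 and 16 weeks, 0 for age on control diet, 0 for the difference of the PEITC effects and 0 for the tumor. A pseudocount of 0.1 gave 2 for PEITC at 16 weeks, 1 for age on PEITC diet and 27 for the difference of the TRAMP effects, and a mean of at least 2 FPKM gave 27 there. With no intensity trend there were 0 for PEITC at 16 weeks and 0 for the difference of the PEITC effects. With 1 library left out the counts ran from 0 to 160 for PEITC at 24 weeks, from 0 to 0 at 16 weeks, from 0 to 16 in the mean, from 1 to 260 and from 0 to 24 for age on control and PEITC diet, and from 0 to 124 and from 33 to 82 for the differences of the PEITC and TRAMP effects. The highs of 160, 260, 124 and 82 came without TRAMP control diet replicate 2 of 24 weeks, and 0 clock genes were called there.

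Whether replicate numbers pair the samples is not given in the labels. Gaps between replicates 0 and 1 correlated across genes between groups at -0.31 to 0.28. These correlations had both signs, and they cannot settle it, because other differences between single libraries enter each gap. The replicate block gave 0 called genes for PEITC at 16 weeks and 0 for age on PEITC diet, and with crossed numbers, tried after seeing the data, 0 for PEITC at 16 weeks; no clock gene changed its call. With 2 libraries at most per group and unknown depth, small changes could not be told from the spread.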
